A study of Mus musculus with 45 samples.

Results

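Cytosolic ribosomal proteins were followed in inguinal fat of male C57BL/6J mice through 50 genes, 33 of the large subunit (Rpl) and 17 of the small subunit (Rps), of 13840 genes that had a probe with a single symbol. A gene was taken when its symbol was Rpl or Rps with a number and an optional a or x, so the kinases of the Rps6k family and pseudogenes were left out. Where a gene had more than 1 such probe (8 genes, 59 probes in all), the brightest was used.

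The 15 groups came from 3 diets during lactation at 5 ages. LUN (lactation under-nutrition) litters had 8 pups and a dam given 50% of what control dams ate. LON (lactation over-nutrition) litters had 4 pups and a dam on a diet with 58% of energy from fat. Control litters had 8 pups and a dam that ate a breeder diet, with 22% of energy from fat, without restriction. Animals were taken at days 5, 10, 21, 56 and 112. All offspring ate low fat chow from weaning to 8 weeks of age and a high saturated fat diet for the next 8 weeks, so the day 56 and day 112 groups of the 3 diets differed by design only in their lactation history. Each group was 1 RNA pool of 12 male mice, read on 3 arrays. The 3 arrays are technical replicates, so a p-value from them weighs a difference between 2 pools against array error only and does not hold the spread between mice.

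Every cytosolic ribosome holds 1 copy of nearly every one of these proteins, and cells keep their supply in step. In mammals this is done mostly at translation. Many of these mRNAs begin with a C followed by a run of pyrimidines, the terminal oligopyrimidine (TOP) motif, through which mTOR signalling sets their translation according to nutrient supply. Arrays measure the mRNA level and not its translation. In bulk fat, fewer cells of a type and less RNA per cell cannot be told apart.

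Start sites are shown for 4 of the 6 genes called in a comparison, since the TOP motif lies there, and for Rps6 (the classic substrate of the S6 kinases) and Rpl28, chosen after the sequences were seen, as examples of a long pyrimidine run. A promoter entry of 300 bases, 250 before the annotated start and 50 after it, was matched for 41 of the 50 genes (RefSeq, GRCm38.p6). Each line gives 10 bases before and 20 after the start, with the pyrimidine run that begins at the start in capitals.
Rpl38 (chr11:114668570-114668599, + strand): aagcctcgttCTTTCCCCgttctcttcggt
Rps28 (chr17:33824543-33824572, - strand): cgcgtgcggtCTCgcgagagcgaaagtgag
Rps15 (chr10:80292421-80292450, + strand): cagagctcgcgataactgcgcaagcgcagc
Rpl31 (chr1:39367841-39367870, + strand): tcctcgcctcCCCgtgacccggaagttgta
Rps6 (chr4:86857348-86857377, - strand): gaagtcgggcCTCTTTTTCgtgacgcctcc
Rpl28 (chr7:4792955-4792984, + strand): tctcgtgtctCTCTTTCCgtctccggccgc

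Rps6 had a run of 9 pyrimidines, Rpl38 and Rpl28 runs of 8, Rps28 and Rpl31 runs of 3, and the annotated start of Rps15 had none. An annotated start at C with 4 or more further pyrimidines was found in 10 of the 41 genes (24.4%), against 3.0% of 27025 genes in the table. The letters CTCTTT, searched on both strands, stood in 23 of 41 promoters (56.1%, against 25.6% of all). The core letters of an ETS site, CCGGAA, likewise on both strands, stood in 24 (58.5%, against 16.7%). CCGGAA can share its closing A bases with the reverse complement of CTCTTT, and a match is a description of the sequence only.

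Signals are log2 intensities after quantile normalization of the 45 arrays, unless median scaling (each array shifted to a common median) is named. Quantile normalization gives every array the same set of values, so it keeps only the rank of a probe, whereas median scaling keeps the width of each array's distribution. The probes of 47 genes averaged 17.3 or more, far above the median probe (9.56). The probes of Rpl27a (14.79) and Rpl4 (13.48), a protein that reaches into the exit tunnel for the nascent chain, were dimmer. Rpl37's probe (8.89) read below the median probe, so its values carry little information. Over the arrays, the median member stood at rank 116 to 258.5 from the top among 33012 probes. Brightness depends on the probe, so levels of different genes were not set against each other. Ribosomal protein genes have many processed copies in the mouse genome, and signal from such copies was not tested.

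Raw array medians ran between 545 and 1459, and each array's correlation with its own group averaged between 0.806 and 0.963. The arrays least like their groups were control day 112 replicate 2 (0.806), LUN day 5 replicate 3 (0.85) and LON day 21 replicate 3 (0.856). In the authors' normalized values the 15 LON arrays share a median of 9.815, whereas the others lie between 9.779 and 9.784. A step that LON arrays had in common and the LON diet therefore cannot be told apart. The fat marker Fabp4 had a median percentile of 99.7 among all probes, the muscle gene Ckm 92.5 and the B cell gene Cd79a 86.1. The lowest array still had Ckm at percentile 69.6 and Cd79a at 69.4. No detection limit was set, and the presence of RNA of other tissues in every group was not tested.

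During lactation the ribosomal protein probes lay higher in LUN fat than in control fat, except that at day 10 this order was lost under median scaling. At day 5 the median over the 50 genes was 19.66, 19.60 and 19.70 on the LUN arrays, against 19.42, 19.56 and 19.34 on the control arrays. At day 10 it was 19.75, 19.63 and 19.66 in LUN, against 19.54, 19.46 and 19.33 in control. At day 21 the LUN values were 19.63, 19.67 and 19.67 and the control values 19.53, 19.44 and 19.24. All LUN arrays lay above all control arrays at each of these 3 ages. At days 56 and 112 the medians of LUN and control overlapped. At day 56 the medians were 19.31, 19.33 and 19.28 in LUN, against 19.26, 19.30 and 19.43 in control, and at day 112 they were 19.27, 19.36 and 19.28 in LUN, against 19.44, 19.28 and 19.37 in control. LON arrays (19.03, 19.22 and 19.16) lay below all control arrays at day 5, and they overlapped with control at days 10, 21 and 112. At day 56 LON arrays (19.22, 19.22 and 19.19) were again below the lowest control array. Under median scaling LON overlapped with control at day 5 (19.10 to 19.30 in LON, 19.22 to 19.32 in control) and lay below it at day 10 (19 to 19.46 in LON, 19.52 to 19.74 in control) and at day 56 (18.84 to 19.14 in LON, 19.52 to 19.78 in control). The lowest group mean of all was LON day 5 (19.14 ± 0.10, SD, n = 3 arrays) and the 3 highest were LUN day 10 (19.68 ± 0.06), LUN day 21 (19.66 ± 0.02) and LUN day 5 (19.65 ± 0.05), which lie within each other's array spread.

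**Figure D1:**
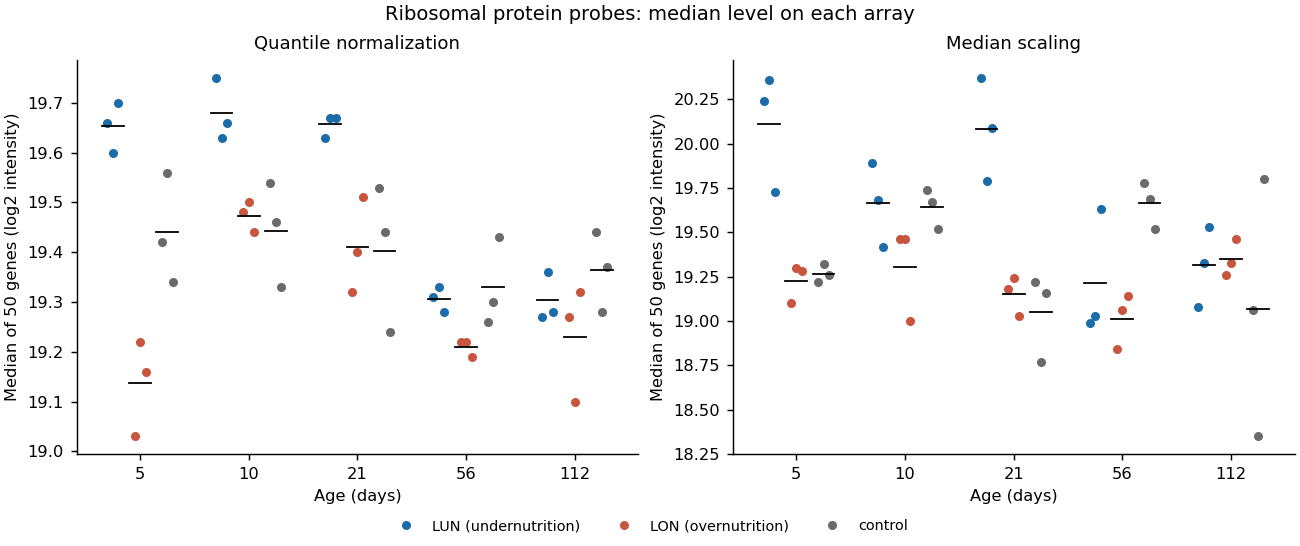
Median log2 intensity of the 50 ribosomal protein genes on each array (points) and the mean of the 3 arrays (lines), by age in days and diet, under quantile normalization (left) and median scaling (right); the vertical axes do not start at 0. On the left the LUN arrays of days 5, 10 and 21 lie between 19.60 and 19.75 and above all control arrays of their age, and on the right this holds at days 5 and 21 and not at day 10.

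The shift was small for each gene and spread over many. The median log2 difference of the 50 genes, LUN minus control, was 0.23, 0.26 and 0.14 over days 5, 10 and 21, against medians over all probes of -0.01, -0.02 and 0.02. It was positive for 38, 43 and 34 of the 50 genes, where 49.1%, 48.4% and 51.1% of all probes were positive. At days 56 and 112 the medians were -0.04 and -0.07, with 22 and 20 genes positive. At day 5 large subunit genes had a median of 0.22 and small subunit genes 0.30, with no test between them. All LUN arrays lay above all control arrays for 13, 17 and 8 genes over the same ages (26%, 34% and 16% of 50), whereas 8.5%, 8.95% and 10.6% of all probes did so. At days 56 and 112 the same held for 2 and 4 genes, against 5.03% and 9.47% of all probes, and at day 56 all LUN arrays lay below control for 4 genes, against 7.93% of all probes.

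By brightest probe, none of the 50 genes passed the threshold in LUN fat at any age. That threshold was an adjusted p under 0.05 by limma, with Benjamini-Hochberg adjustment over all probes. A dimmer second probe of Rpl22 (mean 14.27, against 18.39 for the one used) was called in LUN at day 5. With an unadjusted p below 0.05, 11 genes were higher and 0 lower at day 5, 7 higher and 1 lower at day 10, and 3 higher and 1 lower at day 21, while 3 were lower at day 56 and 1 higher at day 112. Of all probes, 1.41%, 1.39%, 2.71%, 0.203% and 0.551% were called at the adjusted threshold at days 5, 10, 21, 56 and 112. Here and below, shares of all probes called refer to the adjusted threshold, so they give no background for counts at an unadjusted p. The smallest adjusted p at day 5 belonged to Rps28, a small subunit protein at the exit of the mRNA channel, with 20.03, 19.72 and 19.95 in LUN, against 18.98, 19.28 and 19.11 in control (log2 difference 0.78, SE 0.24, limma adjusted p = 0.107). Its 3 LUN arrays lay above all control arrays. At day 21 it belonged to Rps26, a small subunit protein that contacts mRNA, with 19.66, 19.15 and 19.37 in LUN, against 18.95, 19 and 17.65 in control (0.86, SE 0.27, limma adjusted p = 0.0827). The groups did not overlap, and control replicate 3 was the low one. At day 10 it belonged to a gene on the low side, Rpl7 of the large subunit, with 18.60, 18.77 and 18.34 in LUN, against 19.84, 19.99 and 20.20 in control (-1.44, SE 0.40, limma adjusted p = 0.0601), again without overlap. In a contrast added after the levels were seen, LUN minus control at days 5 to 21 against the same at days 56 and 112, the median over the genes was 0.26 and 42 of 50 were positive, yet 0 genes passed in limma (7 higher, 0 lower with an unadjusted p below 0.05), with 1.15% of all probes called.

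**Figure D2:**
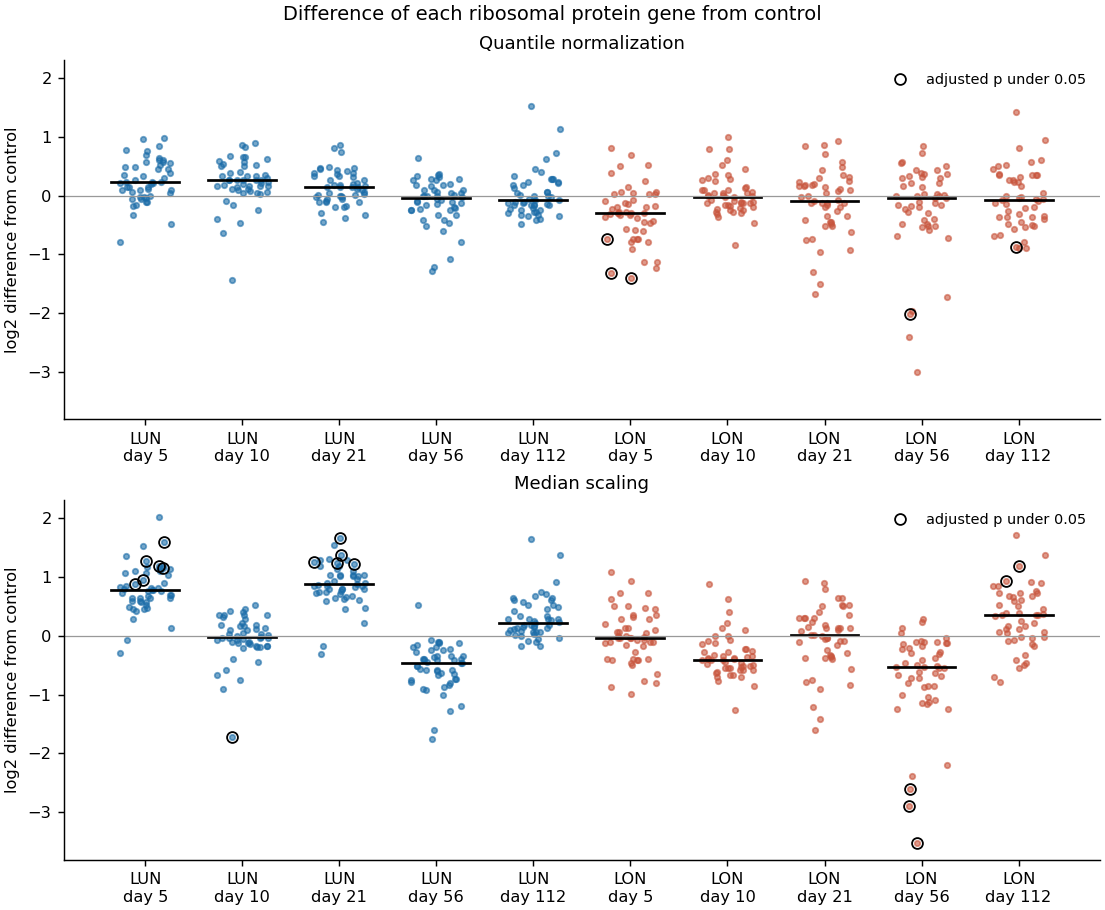
Log2 difference from control of each of the 50 ribosomal protein genes (points) and their median (lines) for LUN and LON at each age in days, under quantile normalization (top) and median scaling (bottom). Circles mark an adjusted p under 0.05; on top they number 3 at LON day 5 and 1 each at LON days 56 and 112, all below 0.

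The share of each array's raw signal that fell on the 50 probes needs no normalization, since a scaling of a whole array cancels in it. It averaged 9.49% in LUN fat at day 5 (8.02 to 11.6), against 6.32% in control (5.87 to 6.66). At day 10 it was 7.88% in LUN (7.66 to 8.27) and 6.42% in control (6.16 to 6.86), and at day 21 8.29% in LUN (8.07 to 8.40) and 6.54% in control (6.5 to 6.58). The arrays of the 2 diets did not overlap at these 3 ages. The share was higher in LUN for 46, 43 and 45 of 50 genes over these ages. No such count was made over all probes, here or for LON below. Whether these counts are particular to the 50 genes was therefore not tested. At day 5 much of the gap came from Rpl13a (1.70 of 3.17 percentage points), a large subunit protein that was the brightest probe of LUN day 5 replicate 3. Under median scaling Rpl13a read 21.39, 21.26 and 25.11 on the LUN arrays of day 5, so replicate 3 stood apart from the other arrays of its pool. Without the 3 genes with the largest differences in share, the other 47 still took 6.02 to 7.89% in LUN, against 5.11 to 5.82% in control, at day 5. At day 21 they took 7.09 to 7.55% in LUN, against 5.76 to 5.89% in control. At day 56 the order was the opposite, with 5.91% in LUN (5.74 to 6.03) and 6.48% in control (6.28 to 6.6) and no overlap. At day 112 the share was 5.81% in LUN (5.54 to 6.02) and 5.85% in control (5.65 to 6.24), and the arrays overlapped. In LON fat the share was 5.08% at day 5 (4.56 to 5.63), below every control array, and lower for 39 of 50 genes. At day 56 the LON share (5.82%, 5.57 to 6.03) was again below every control array. It overlapped with control at day 10 (6.49%, 6.14 to 6.77), day 21 (6.42%, 6.08 to 6.98) and day 112 (5.38%, 5.13 to 5.79).

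**Figure D3:**
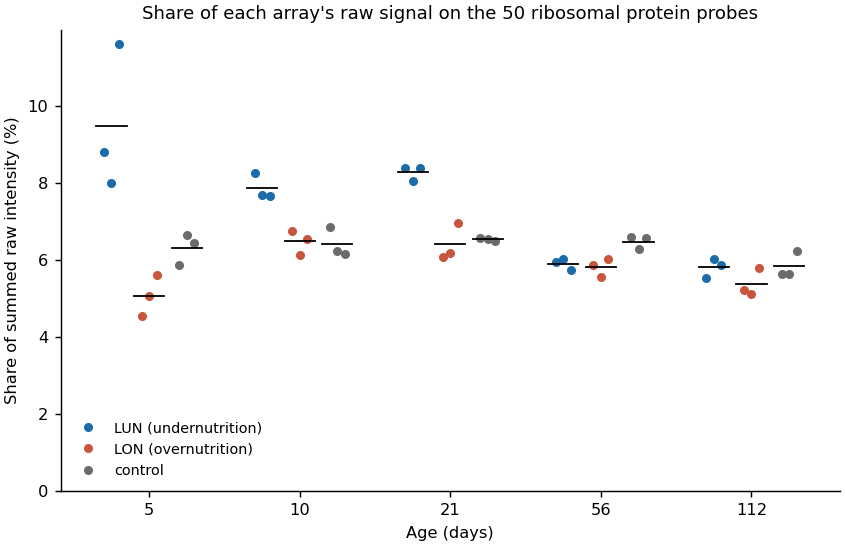
Share of the summed raw intensity of each array (percent, axis from 0) on the 50 ribosomal protein probes, by age in days and diet; points are arrays and lines the means of 3. LUN arrays at days 5, 10 and 21 (7.66 to 11.6%) lie above all control arrays (5.87 to 6.86% at those ages), LON day 5 lies lowest, and at day 56 both LUN (5.74 to 6.03%) and LON (5.57 to 6.03%) lie below control (6.28 to 6.6%).

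Median scaling changed several of these comparisons. The LUN minus control median of the 50 genes was then, by age, 0.78, -0.02, 0.87, -0.46 and 0.23, against medians over all probes of 0.08, -0.13, 0.10, -0.20 and 0.13. All LUN arrays lay above control for 31, 3 and 36 genes over days 5, 10 and 21 (62%, 6% and 72% of 50), against 12.7%, 7.3% and 11.5% of all probes. They lay below control for 7 genes at day 10, against 22.8% of all probes. At day 56, 0 genes lay above and 13 below (26%), against 2.86% and 11.1% of all probes. At day 5, 6 genes passed, all higher in LUN: Rps18 (1.59), Rps25 (1.27), Rpl30 (1.19), Rpl10 (1.15), Rps14 (0.95) and Rpl21 (0.88), with 1.59% of all probes called. At day 21, 5 passed, all higher: Rps26 (1.66), Rpl14 (1.37), Rpl12 (1.25), Rps14 (1.24) and Rps6 (1.23), with 1.68% called. At day 10 only Rpl7 passed, lower in LUN (-1.73), with 3.09% called. Called probes were 0.179% at day 56 and 0.282% at day 112, with 0 genes among them (10 were lower at day 56 and 3 higher at day 112 with an unadjusted p below 0.05). The added contrast had a median of 0.69 and 49 of 50 genes positive under this scaling, with 0 called in limma (24 higher with an unadjusted p below 0.05) and 0.436% of all probes called. Under median scaling the member median of an array followed the width of its raw distribution, the log2 ratio of the 99th percentile to the median (r = 0.85 over the 45 arrays, which share pools in threes), whereas under quantile normalization it did not (r = 0.06). The order of LUN over control at days 5 and 21 was common to both scalings and to the share of raw signal, and that at day 10 to quantile normalization and the share.

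LON fat at day 5 had the clearest single genes. The median difference from control was -0.29, or -0.03 under median scaling (medians over all probes 0.02 and 0.15), 37 of 50 genes were negative, and 16 genes (32%) had all 3 LON arrays below all control arrays, against 9.17% of all probes. Under median scaling 7 genes lay below and 8 above in this way, against 6.16% and 22.4% of all probes. Of the 50 genes 3 passed, all lower in LON, with 1.77% of all probes called. Rpl38, a large subunit protein known in mice for its role in translation of Hox mRNAs, had 18.18, 18.74 and 19 in LON, against 20.24, 20.14 and 19.76 in control (log2 difference -1.40, SE 0.25, limma adjusted p = 0.00102). Rps28 had 17.71, 17.81 and 17.88 in LON, against 18.98, 19.28 and 19.11 in control (-1.32, SE 0.24, limma adjusted p = 0.0011). All LON values of both genes lay below the lowest control array, and both stayed called with any 1 array left out. Rps15, a small subunit protein needed in human cells for export of the pre-40S particle, had 18.35, 18.83 and 18.79 in LON, against 19.67, 19.54 and 18.96 in control (-0.73, SE 0.20, limma adjusted p = 0.0489). The groups did not overlap, but the call was lost when any of 5 of the 6 arrays was left out. Under median scaling none of the 3 passed (Rpl38 -0.99, limma adjusted p = 0.0717; 4 genes higher and 3 lower unadjusted) and 2.84% of all probes were called, and 0 of the 3 passed when the fit held only the 6 arrays compared. In LUN at day 5 Rpl38 had 21.04, 20.95 and 19.88, of which the last lay inside the control range, and the LUN mean of both genes was above that of control.

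**Figure D4:**
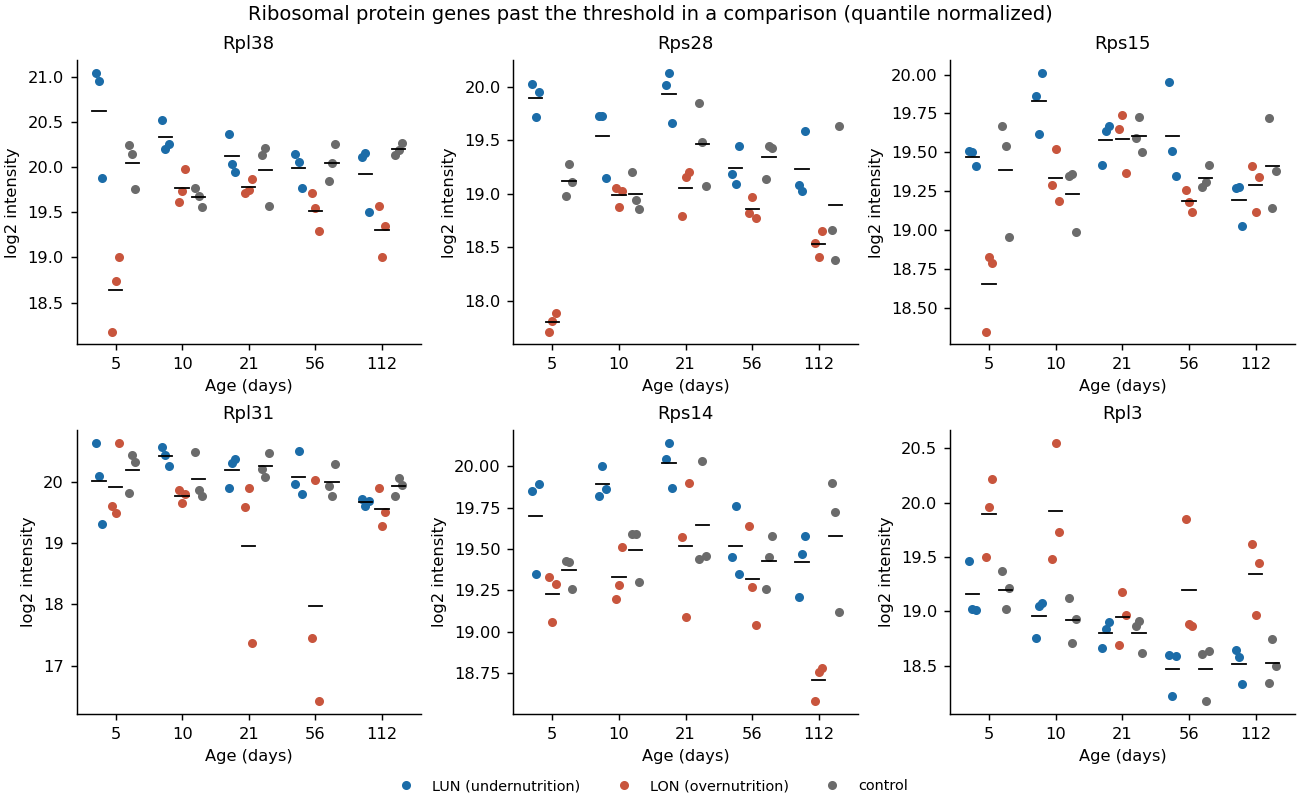
Quantile-normalized log2 intensity of the 6 genes that passed the threshold in a comparison, on each array (points) with the mean of 3 (lines), by age in days and diet; the vertical axes differ and do not start at 0. The LON day 5 arrays are the lowest of Rps28 (17.71 to 17.88) and Rps15 (18.35 to 18.83) and, with 1 array of LON day 112 beside them, of Rpl38 (18.18 to 19), and 2 of 3 LON day 56 arrays are the low ones of Rpl31.

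At later ages few genes passed between LON and control. No gene passed at day 10 (median -0.01, 2 higher and 1 lower with an unadjusted p below 0.05 in limma, 0.739% of all probes called) or at day 21 (median -0.08, 5 higher and 2 lower unadjusted, 1.4% called). At day 112 Rps14, a small subunit protein near the mRNA channel, had 18.58, 18.76 and 18.78 in LON, against 19.90, 19.72 and 19.12 in control (-0.87, SE 0.22, limma adjusted p = 0.0287), the only gene called, with 2.38% of all probes called. It did not pass when any of 5 of the 6 arrays was left out. The 2 sets of arrays did not overlap. Under median scaling Rps14 did not pass at day 112 (-0.41), while Rpl3 (1.18) and Rpl28 (0.93) were higher in LON, with 6.82% of all probes called. That scaling called no gene at days 10 and 21 (limma, 4 lower and 4 higher with an unadjusted p below 0.05; 0.7% and 0.718% of all probes called).

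At day 56 all 3 LON arrays had a member median below control. All LON arrays lay below control for 10 genes (20%, against 13.2% of all probes) and above control for 7 (14%, against 7.54%). The median log2 difference of the genes was -0.04, against -0.1 over all probes, and 42% were positive, against 42.8%. By these 2 measures the genes were not lower than all probes under quantile normalization. Under median scaling the median was -0.54, against -0.24 over all probes, and 8% of the genes were positive, against 33.8%. That scaling had 26 genes with all LON arrays below control (52%, against 17.5%), whereas at day 10 it had 22 (44%, against 14.5%). The single genes with the largest differences at day 56 rested on a few very low readings. Rpl31, a large subunit protein beside the exit tunnel, had 17.45, 20.03 and 16.42 in LON, against 19.92, 19.77 and 20.28 in control (-2.02, SE 0.54, limma adjusted p = 0.0492), the only gene called, with 1.54% of all probes called. One LON array lay inside the control range. Rpl9 read 15.32, 19.69 and 15.03 in LON, against 19.65, 19.51 and 19.90 in control (-3.00, SE 0.86, limma adjusted p = 0.0679). Rpl36a read 15.60, 19.05 and 15.89 in LON, against 19.34, 19.24 and 19.20 in control (-2.41, limma adjusted p = 0.0627). In both genes it was again replicates 1 and 3 that were low, and replicate 2 that was near control. Median scaling called Rpl9 (-3.53), Rpl36a (-2.90) and Rpl31 (-2.60), with 1.38% of all probes called. LON day 21 replicate 3 was low for the same genes, with 16.04 for Rpl9, 15.97 for Rpl36a, 17.37 for Rpl31 and 14.31 for Rpl17. Rpl17 was also low on LON day 56 replicate 1 (13.43) and not on replicates 2 and 3 (19.45 and 19.09). Arrays of 1 pool should read the same RNA, so these gaps are differences between arrays. In all, 21 of 2250 values lay more than 2 log2 units below the gene's own median, on 8 arrays and in 12 genes. Of these, 12 were on LON day 21 replicate 3 (4), LON day 56 replicate 1 (5) and LON day 56 replicate 3 (3). A second bright probe of Rpl31 (mean 19.16) did not follow the first over the 15 groups (r = -0.01), and with the mean of its probes Rpl31 no longer passed (-0.79). The second bright probe of Rpl26 (mean 19.23) did not follow its first either (r = -0.26). For the other, dimmer probes r lay between 0.12 (Rps24) and 0.72 (Rpl14).

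**Figure D5:**
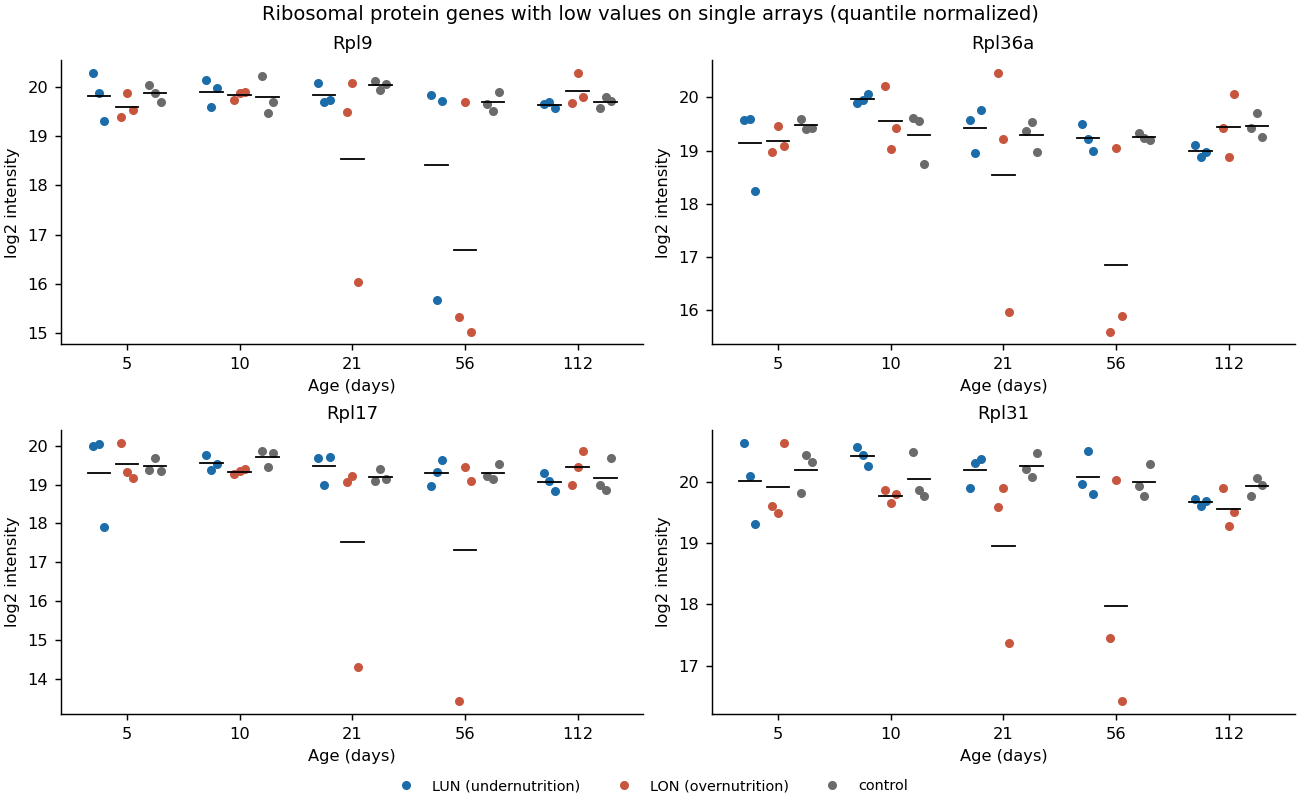
Quantile-normalized log2 intensity of Rpl9, Rpl36a, Rpl17 and Rpl31 on each array (points) with the mean of 3 (lines), by age in days and diet; the vertical axes differ and do not start at 0. The low points of LON day 21 are replicate 3 and those of LON day 56 are replicates 1 and 3 (for Rpl17 replicate 1 alone), while LON day 56 replicate 2 lies between 19.05 and 20.03.

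With the pool as the sample, 15 pools and age and diet in the model, the test weighs differences against the spread between pools. LUN against control over the 5 ages called 0 genes (median 0.14, 35 of 50 positive, 1 higher with an unadjusted p below 0.05 in limma), and 0% of all probes were called under either scaling. LON against control called 0 under either scaling (median -0.14, 4 higher and 8 lower with an unadjusted p below 0.05 in limma), with 0.215% of all probes called, 0.285% under median scaling. The largest upward difference in LON was that of Rpl3, a large subunit protein near the peptidyl transferase centre (0.68, SE 0.17, limma adjusted p = 0.156). At day 10 Rpl3 read 19.48, 20.55 and 19.73 in LON, against 19.12, 18.71 and 18.93 in control. At day 112 it read 19.62, 18.97 and 19.44 in LON, against 18.34, 18.74 and 18.50 in control. LON arrays lay above all control arrays at both ages, but under quantile normalization no age passed on its own (day 112 passed under median scaling).

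Adult fat had a small negative difference from early postnatal fat in most genes. For days 56 and 112 against days 5 and 10, the median over the genes was -0.21 under quantile normalization and -0.24 under median scaling, and 46 of 50 genes were negative under both. Of them Rpl3 alone passed, lower in adult fat (-0.59, SE 0.15, limma adjusted p = 0.0289), with 9.09% of all probes called. Its control means were 19.20, 18.92, 18.80, 18.47 and 18.53 at days 5, 10, 21, 56 and 112, and its LUN means 19.16, 18.96, 18.80, 18.47 and 18.52, the same course within array error. LON means were 19.89, 19.92, 18.94, 19.20 and 19.34. The call was lost when any of 10 of the 12 pools was left out, and no gene passed under median scaling (3 lower with an unadjusted p below 0.05 in limma, 7.57% of all probes called). Of the genes in other lists, Rplp0, of the ribosomal stalk, was lower (-0.68, limma adjusted p = 0.0161), but did not pass under median scaling. Of 52 ribosome biogenesis genes 5 were lower, a share near that of all probes called, and 2 under median scaling, Nop58 (-0.90 under quantile normalization) and Brix1 (-0.76). In the cell cycle list 18 of 22 genes were lower (median -2.17), with Ccnb2 (-3.25) and Birc5 (-2.81) among them.

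Under quantile normalization the median SD of a gene's group means was 0.33, equal to that of arrays within a group (0.33). The SD of group means was the larger one for 17 of 50 genes. Under median scaling the 2 medians were 0.44 and 0.41, and 21 genes had the larger SD between groups. A low correlation between genes therefore does not show that they moved apart. Across the 15 group means, the median correlation of 1225 pairs of genes was 0.26 under quantile normalization and 0.58 under median scaling, a description over groups that share the arrays' scaling. Under quantile normalization 31 of 50 genes had their highest group mean in LUN at day 5, 10 or 21, and the lowest group means fell most often in LON day 5 (11 genes), control day 112 (10) and LON day 112 (8). Under median scaling control day 112 held 16 of the lowest, LON day 5 held 9 and LON day 112 held 4. Rpl38, Rps25 and Rpl36 followed the median profile closely (r = 0.75, 0.76 and 0.78 over 15 groups). Rpl5 (-0.23), which binds 5S rRNA, Rpl7 (-0.12), Rpl10 (-0.11), which joins the 60S particle late, Rpl3 (-0.04), Rps24 (0.00) and Rpl26 (0.00) did not. Rpl5 had its highest group mean in LON at day 5 (19.66), where the median profile was lowest. Ranges over the group means were smallest for Rpl27a (0.58), Rpl26 (0.68) and Rps23 (0.70), and largest for Rpl9 (3.35), Rpl36a (3.13), Rpl31 (2.45), Rpl17 (2.38) and Rps28 (2.14). Of these 5, only for Rps28 was the spread of the group means (0.53) larger than that of the arrays within a group (0.27). Rps12 was the brightest probe of 5 arrays and there read the top value of 22.21, so its upper values carry only a rank.

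Other genes of the translation machinery were described from lists, with no test between a list and the 50 genes. Over 65 mitochondrial ribosomal proteins the LUN minus control median was -0.13, 0.19 and -0.16 over days 5, 10 and 21, with Mrpl52 (0.92) called higher at day 10 and Mrpl34 (-0.62) called lower at day 21. Over 52 ribosome biogenesis genes it was 0.04, 0.01 and 0.10, with 1 called, Rrp1b lower at day 21 (-2.15). Elongation factors and other genes with TOP mRNAs (13 genes) had medians of 0.22, 0.14 and 0.03, and Eef1b2, an exchange factor of eEF1A, was higher at day 5 (0.75). Their share of raw signal was 0.676%, 0.718% and 0.722% in LUN, against 0.733%, 0.832% and 0.724% in control. The 6 other cytosolic ribosomal proteins that the naming rule leaves out took 0.657%, 0.669% and 0.901% in LUN, against 0.796%, 0.723% and 1.01% in control, and had median differences of 0.08, 0.20 and 0.02. In LON at day 5 their median was -0.50, and Fau, whose product is cut to a small subunit protein, was lower (-0.86, limma adjusted p = 0.0281). Of 22 RNA polymerase I and III genes, Taf1d, a subunit of the RNA polymerase I factor SL1, was called in both directions. It was higher in LUN at day 5 (1.06) and day 10 (0.89) and lower in LON at day 5 (-0.87). Maf1 was also higher in LUN at day 5 (1.01). Ubtf went the other way from Taf1d in LON at day 5 and was higher (1.98). In the mTOR list of 19 genes, the inhibitor Ddit4 was lower in LUN at day 5 (-1.77) and higher at day 21 (1.89). The other calls of that list in LUN were Lamtor1, lower at day 5 (-1.45), and Deptor, lower at day 21 (-1.22). Initiation factors (22 genes) had 0 calls in LUN at these ages, while Eif4g2 was higher in LON at day 5 (2.37), day 56 (2.11) and day 112 (2.48), and over the pools (1.94, limma adjusted p = 0.0202).

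Rpl3l, the striated muscle form of Rpl3, was called in both directions, and its sign was that of the skeletal muscle markers each time. It was higher in LUN at day 56 (2.40) and in LON at days 10 (2.39) and 56 (3.79), and lower in LUN (-1.65) and LON (-3.95) at day 112. The 11 muscle markers had medians of 3.48, 3.61, 5.14, -2.35 and -4.36 in the same comparisons. In LUN the muscle median was 0.39, 2.20 and -1.71 over days 5, 10 and 21. The ribosomal protein median was 0.23, 0.26 and 0.14 at these ages, and 0.78, -0.02 and 0.87 under median scaling. The part of muscle RNA in the ribosomal protein levels was not tested. The muscle markers' summed share of raw signal was 0.0965 to 0.11% in LUN, against 0.107 to 0.122% in control, at day 5, 0.253 to 0.298% in LUN, against 0.0689 to 0.0887% in control, at day 10, and 0.169 to 0.233% in LUN, against 0.62 to 0.745% in control, at day 21.

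Markers of several other cell types were set beside the LUN values of days 5, 10 and 21. Of 11 adipocyte markers (medians -0.62, -0.57 and -0.17) 3, 2 and 2 were lower in LUN at days 5, 10 and 21. Among them were Lep (-4.19, -4.09 and -5.83) and Dgat2 (-2.36, -1.79 and -1.32). Under median scaling Lep alone passed at day 21, and the medians were -0.16, -0.95 and 0.23 over the 11 markers. Their summed share of raw signal was 0.36 to 0.811% in LUN, against 0.825 to 0.905% in control, at day 5, 0.671 to 0.731% in LUN, against 0.758 to 0.944% in control, at day 10, and 0.84 to 1.05% in LUN, against 0.882 to 1.22% in control, at day 21. Of 15 B and T cell markers 0, 1 and 0 passed, Ccr7 being higher at day 10 (1.02). Their share was 0.0178 to 0.0188% in LUN, against 0.0167 to 0.0184% in control, at day 5, 0.0314 to 0.0369% in LUN, against 0.026 to 0.0291% in control, at day 10, and 0.0441 to 0.0491% in LUN, against 0.0553 to 0.0593% in control, at day 21. At LON day 5, 3 of 9 epithelial markers were higher, among them Krt5 (4.50) and Krt14 (3.08). Their summed share was 0.0161 to 0.0173% in LON, against 0.00185 to 0.00252% in control. This was not limited to day 5, since Krt5 and Krt14 were also higher in LON at day 10 (5.23 and 3.63) and day 21 (3.46 and 2.15). Brown fat markers (11 genes) had medians of -0.29, 0.39 and -0.78 in LUN at days 5, 10 and 21, with Ucp1 lower at day 5 (-1.84) and day 21 (-2.26). Of 11 preadipocyte and fibroblast markers (medians -0.39, -0.50 and -0.50) Dpt was lower at day 10 (-1.19) and Zfp423 at day 21 (-0.97). Their share at day 10 was 0.858 to 0.934% in LUN, against 1.01 to 1.22% in control, with no overlap, and the arrays overlapped at days 5 and 21. Of 7 macrophage markers Mrc1 was lower at day 10 (-1.02) and Cd14 higher at day 21 (1.15), and their shares overlapped at days 5, 10 and 21. The summed share of 4 erythroid markers at day 10 was 0.114 to 0.203% in LUN, against 0.298 to 0.34% in control. It overlapped at day 5 (0.0938 to 0.31% in LUN, 0.171 to 0.399% in control) and at day 21 (0.298 to 0.332% in LUN, 0.123 to 0.325% in control). The median differences of these markers were -0.21, -0.04 and -0.15 over days 5, 10 and 21, and none passed. The part of these cells in the ribosomal protein levels was not tested.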

How the data were processed

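The authors hybridized digoxigenin-labelled cRNA of 15 RNA pools, 3 arrays each, to Applied Biosystems Mouse Genome Survey arrays read by chemiluminescence. The deposited intensity values are linear probe signals with no normalization between arrays, and the sources used here do not state a background step. The deposited log2 values were quantile normalized by the authors, and served as an alternative. Here raw intensities of 45 arrays were quantile normalized and taken to log2 (correlation with the deposited log2 values 0.9998, no pseudocount), and 33012 probes were fitted in limma 3.58.1 (R 4.3.3), with 1 mean per group. Pool means were fitted with age and diet. Tests were two-sided with Benjamini-Hochberg adjustment over all probes. The fits were tested on simulated data. Of all probes 14411 had 1 symbol, 247 several and 18354 none; all 50 symbols are current. The members, lists and comparisons were chosen with earlier results of these data known. Genes were named if called (up to 4 per direction and comparison), or by extreme mean level, range or correlation with the median profile. Other genes named were singled out after their values were seen. Plots used matplotlib 3.10.9. The number of arrays limits the precision.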

Additional observations from a re-analysis of the deposited data

How the results depend on the processing

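The number of ribosomal protein genes called moved with the scaling, and no call changed sign. In order of age, the brightest probes called 0, 0, 0, 0 and 0 genes in LUN and 3, 0, 0, 1 and 1 in LON. Median scaling called 6 (LUN day 5), 1 (LUN day 10), 5 (LUN day 21), 0 (LON day 5), 3 (LON day 56), 2 (LON day 112) and 0 (adult against early pools). Cyclic loess called 2, 1 and 1 in LUN at days 5, 10 and 21, 1 in LON at day 10 and 0 at day 56. The authors' normalized values called 0 in LON at day 56, and an offset of 197.3 called 2 in LON at day 112. Probes above the median signal called 2, 2 and 1 in LUN at days 5, 10 and 21, 1, 3 and 3 in LON at days 10, 56 and 112, and 4 in adult against early pools. The mean of a gene's probes called 0 in LON at day 56 and 2 in adult against early pools. Without the 3 arrays least like their groups, chosen after seeing the data, 3 passed in LON at day 56 and 0 at day 112. A fit of only the 6 arrays compared called 0 in LON at days 5, 56 and 112. The methods' t-test after Benjamini-Hochberg called 1, 0 and 0 there. At an unadjusted p of 0.05 it called 8, 10, 4, 2 and 4 in LUN and 11, 6, 5, 9 and 7 in LON at the 5 ages. For settings other than median scaling, no share of all probes called stands beside these counts. They therefore describe the processing and are not results about the genes. The median difference of the 50 genes kept its sign in 10 of 14 comparisons under median scaling, 11 of 14 under cyclic loess, 13 of 14 with the authors' normalized values and 14 of 14 with the offset, the brighter probes or the mean of probes. The cause of these moves was not tested.

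With 1 array left out, calls ran between 0 and 0 (LUN days 5 and 56, LON day 21), 0 and 1 (LUN day 10 without LUN replicate 2, LUN day 21 without control replicate 1, LON day 10 without LON replicate 1, and the added contrast without control day 112 replicate 1), 0 and 2 (LUN day 112 without control replicate 3), 2 and 3 (LON day 5), 0 and 4 (LON day 56, 4 without LON replicate 2) and 0 and 3 (LON day 112, 3 without control replicate 3). With 1 pool left out they ran between 0 and 2 for adult against early pools (2 without LON day 112) and stayed at 0 for LUN and LON. The median difference of the 50 genes lay between 0.18 and 0.28 in LUN at day 5, 0.2 and 0.3 at day 10, and 0.05 and 0.17 at day 21. Same-numbered arrays of different groups did not deviate together (correlations between -0.08 and 0.1), so the numbers do not pair the arrays. With the replicate number as a block, Rps15 was lost (limma adjusted p = 0.0517), leaving 2 genes in LON at day 5, and no other called gene was lost. The deposited arrays limit the precision to array error within pools.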
